A study of Homo sapiens with 6 samples.

Results

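The diacylglycerol-responsive branch of the protein kinase C superfamily was examined as 9 genes: the classical isoforms PRKCA and PRKCB, the calcium-independent isoforms PRKCD, PRKCE, PRKCH and PRKCQ (the nPKC class), and the protein kinase D genes PRKD1, PRKD2 and PRKD3. They were chosen by gene symbol, as the probe sets annotated with exactly 1 gene symbol that is one of these names, among 18404 genes on the arrays. Each of the 9 genes had 1 such probe set. No probe set annotated with several genes named any of them. The groups were shPKCi, 3 samples of cells carrying a short hairpin RNA against PKCλ/ι (encoded by PRKCI), and shNT, 3 samples of cells carrying the hairpin named NT. All samples came from 1 cell line, PrEC, which was derived from normal epithelium of the prostate and immortalized, grown in prostate epithelial growth medium and harvested 48 hours after plating without further treatment. The series calls the samples of a group biological replicates. The hairpin sequences, and whether a line was 1 clone or a pool, are not stated in these sources.

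Protein kinases C are serine/threonine kinases that many growth factor and G protein-coupled receptors switch on through phospholipase C, which splits a membrane lipid into diacylglycerol and a calcium-mobilizing messenger. Classical isoforms need diacylglycerol and calcium, nPKC isoforms need diacylglycerol without calcium, and the atypical isoforms PKCλ/ι and PKCζ respond to neither and work with the Par polarity proteins. Protein kinases D bind diacylglycerol through the same kind of zinc finger but have a different type of kinase domain, and nPKCs phosphorylate and activate them. Transcript levels were measured here, not protein or kinase activity.

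The arrays are described first where they bear on these genes. PRKCI, the hairpin's target, had intensities of 800.3, 810.2 and 753.8 in shPKCi and of 1635, 1428 and 1843 in shNT, and was 2.06-fold lower (log2 fold change -1.05, SE 0.11, limma adjusted p = 0.000279). The array of shNT replicate 2 stood apart, with correlations to the other arrays between 0.974 and 0.989 over genes, against a lowest value of 0.982 among the other 5 arrays. Its effect on the members is given beside their values. Among basal epithelial markers, the keratin genes KRT5, KRT14 and KRT15 lay at the 99.6th, 97.1th and 34.0th percentile of signal of all genes. The luminal keratin genes KRT8 and KRT18 lay at the 95.9th and 96.3th. Of 10 basal markers measured 9 lay above the median signal of all genes, and of 7 luminal markers 2 did. The leukocyte gene PTPRC lay at the 1.17th percentile, and the fibroblast genes DCN, COL1A2 and COL1A1 at the 3.42th, 46.1th and 62.1th. In shPKCi 5 of the 10 basal markers were lower and 1 was higher, beside 8.95% of all genes lower and 9.55% higher. The higher gene was EPCAM (0.60, adjusted p = 0.0128). EPCAM and CDH1 are in this list but mark epithelium in general rather than basal cells. The mean log2 level of the basal markers lay between 9.61 and 9.65 in shPKCi and between 9.90 and 9.95 in shNT. Of 12 fibroblast, endothelial and leukocyte markers, 1 (COL1A1) lay above the median signal of all genes. COL1A1 was lower (-0.49, adjusted p = 0.0244), the T cell gene CD3D was higher (0.34, adjusted p = 0.0324), 10 did not pass, and their mean log2 level lay between 4.39 and 4.42 in shPKCi and between 4.38 and 4.61 in shNT. Of 7 luminal prostate markers 1 was lower and none higher, and of 5 neuroendocrine markers none passed, also at an unadjusted p. The part of cell state or cell make-up in the results below was not tested, and in bulk RNA fewer cells of a type and less RNA per cell cannot be told apart.

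Of the 9 genes, 3 were lower in shPKCi, none was higher and 6 did not pass the test (limma on log2 intensities with all genes in the fit, Benjamini-Hochberg adjusted p under 0.05). Across all genes 18.5% were called, 8.95% of them lower and 9.55% higher in shPKCi, as shares of all genes tested. After centring of each array on its genes' median, 2170 genes were higher and 1321 lower, against 1758 and 1648 as reported here, and 1 of the 9 was lower. The genes called were PRKCA, PRKCQ and PRKD1, that is 1 of 2 classical, 1 of 4 nPKC and 1 of 3 PKD genes. At an unadjusted p under 0.05, 4 were lower, with PRKCH as the fourth, and 0 higher, where 29.7% of all genes were called (14.7% lower and 15% higher). The median log2 fold change was -0.18 over the 9 genes and -0.02 over all genes. The log2 fold change was below 0 in 7 of the 9 genes and in 53.0% of all genes. The 3 shPKCi arrays all lay below the 3 shNT arrays for 5 of the 9 genes, PRKCA, PRKCD, PRKCH, PRKCQ and PRKD1, and for 17.8% of all genes (35.7% in either direction). No member had all its shPKCi arrays above its shNT arrays, which 18% of all genes had. Without shNT replicate 2 the count of lower genes was again 3. It was 2 without shPKCi replicate 3, and 1 without any one of shPKCi replicate 1, shPKCi replicate 2, shNT replicate 1 or shNT replicate 3.

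**Figure D1:**
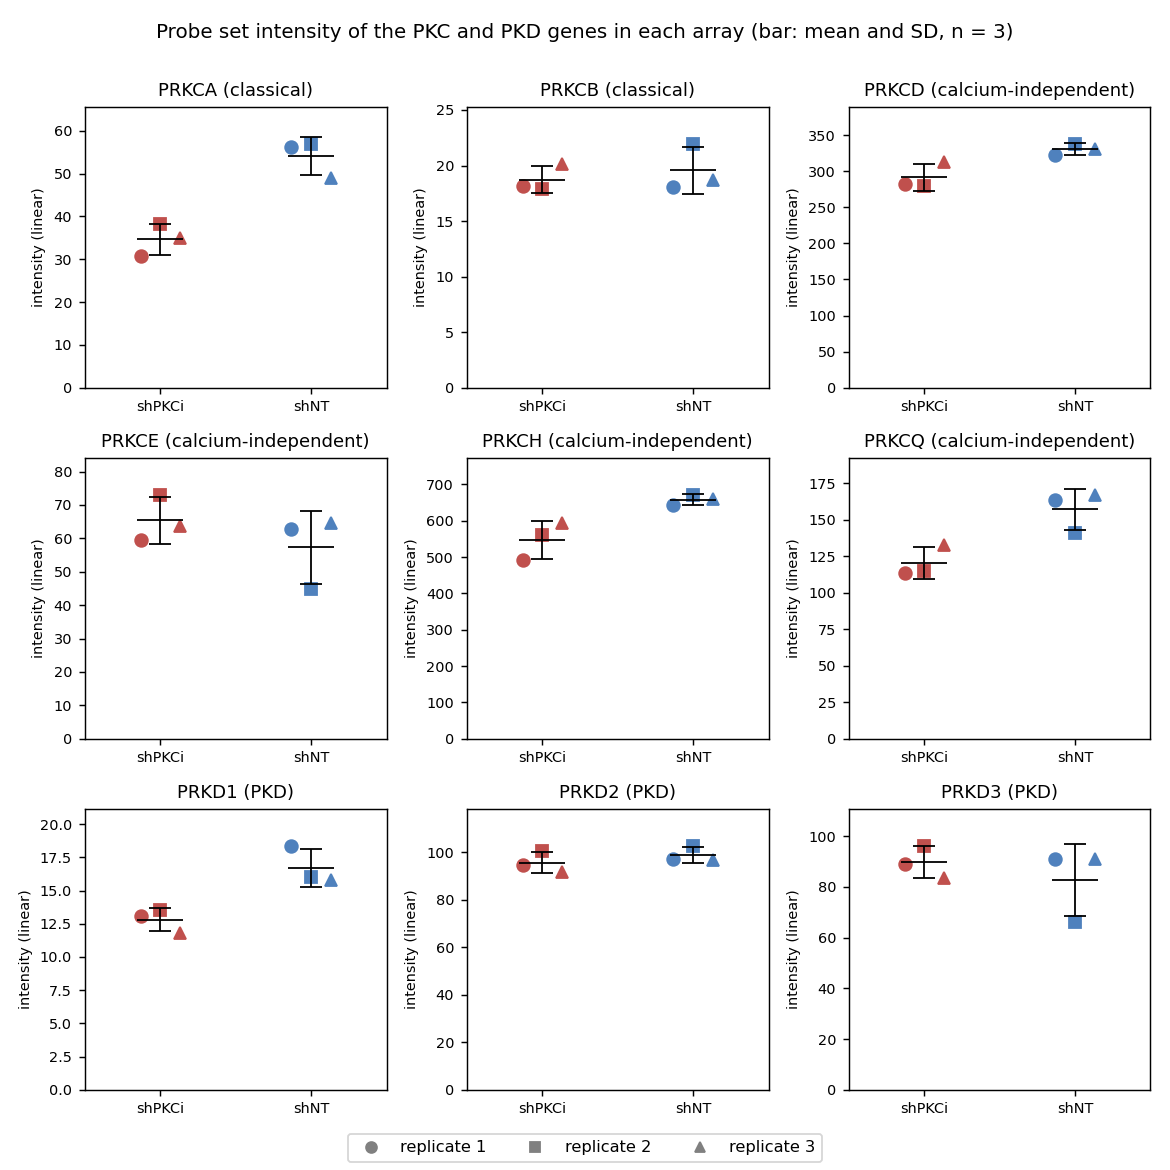
Probe set intensity (linear scale, arbitrary units) of the 9 genes in each of the 6 arrays, 3 of shPKCi on the left and 3 of shNT on the right of each panel. Symbols mark the replicate number and black bars the mean and SD (n = 3). PRKCA, PRKCD, PRKCH, PRKCQ and PRKD1 do not overlap between the groups, and shNT replicate 2 is the lowest array for PRKCE and PRKD3.

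The regions before the transcription starts of the 3 lower genes are shown because these genes moved in the same direction in different subfamilies, and they differ widely in base composition. Each is the 250 bases before the start site in RefSeq on GRCh38.p14, written along the gene's own strand. Capitals mark matches to a GC box (GGGCGG or its reverse complement) or to TATAAA on either strand. PRKCA lies on the plus strand (chr17:66302363-66302612), PRKCQ on the minus strand (chr10:6580647-6580896) and PRKD1 on the minus strand (chr14:29927848-29928097).
PRKCA: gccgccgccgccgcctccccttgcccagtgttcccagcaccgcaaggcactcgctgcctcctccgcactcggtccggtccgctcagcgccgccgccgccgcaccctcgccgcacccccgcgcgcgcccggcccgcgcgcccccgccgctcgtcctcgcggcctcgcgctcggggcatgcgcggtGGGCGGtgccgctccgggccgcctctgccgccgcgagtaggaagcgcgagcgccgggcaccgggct
PRKCQ: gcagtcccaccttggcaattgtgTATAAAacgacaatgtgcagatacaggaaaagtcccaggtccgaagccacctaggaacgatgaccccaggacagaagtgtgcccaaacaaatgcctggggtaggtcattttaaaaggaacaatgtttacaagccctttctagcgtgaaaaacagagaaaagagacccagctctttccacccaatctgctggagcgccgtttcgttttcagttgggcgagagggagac
PRKD1: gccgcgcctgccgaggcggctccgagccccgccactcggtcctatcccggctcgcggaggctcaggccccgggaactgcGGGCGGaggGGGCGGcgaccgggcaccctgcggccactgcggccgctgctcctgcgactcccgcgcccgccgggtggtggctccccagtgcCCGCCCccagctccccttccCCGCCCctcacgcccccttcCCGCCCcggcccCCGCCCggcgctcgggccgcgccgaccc

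The PRKCA and PRKD1 sequences were 82% and 82.8% G and C, at the 98.6th and 99th percentile of 35116 such windows in RefSeq, and the PRKCQ sequence was 49.2%, at the 31.1th percentile. The ratio of observed to expected CpG was 1.16 for PRKCA, 0.878 for PRKD1 and 0.529 for PRKCQ. PRKD1 held 6 GC boxes, the nearest beginning 28 bases before the start, PRKCA held 1, and PRKCQ held none. PRKCQ was the member with a TATAAA match, beginning 227 bases before the start. Over the members, with 1 window taken per gene, a GC box stood in 8 of 9 windows and TATAAA in 1 of 9. Over all windows, of which a gene can have several, the shares were 42.6% and 10.7%. The median G and C content of all windows was 58%. The member windows other than that of PRKCQ held from 66.4% (PRKCE) to 82.8% (PRKD1). The letters TGANTCA, a match to AP-1, a factor through which phorbol esters and PKC act on transcription, were in none of the 9 windows and in 6.57% of all windows. No window of a member held the cyclic AMP response element TGACGTCA, found in 1.65% of all windows, or the hypoxia response core ACGTG, found in 18.5%. CCAAT was in 2 of 9 (PRKCQ and PRKD2) and in 32% of all windows. All patterns were searched on both strands. Neither ACGTG nor its reverse complement occurs inside TGACGTCA, so that matches to both can share letters only at its ends. The start sites of the PRKCE and PRKCH windows lie 396 and 134111 bases inside the outermost start that RefSeq gives the gene, and those of the other members are at it. These matches describe letters in the sequence, not sites in use.

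PRKCA encodes PKCα, the classical isoform found in most tissues, which moves to the plasma membrane when calcium and diacylglycerol rise. Its gene spans chr17:66302613-66810743 on GRCh38.p14. Probe set 8009301 had intensities of 30.8, 38.1 and 35.0 in shPKCi replicates 1 to 3 and of 56.2, 57.0 and 49.1 in shNT replicates 1 to 3. Every shPKCi array was below every shNT array, with a gap between the groups wider than the range within shPKCi. The means were 34.6 ± 3.68 in shPKCi and 54.1 ± 4.36 in shNT (SD, n = 3 each). PRKCA was 1.56-fold lower (log2 fold change -0.64, SE 0.11, 95% confidence interval -0.90 to -0.39, limma adjusted p = 0.00384). It passed in all 6 fits that left out 1 array, with log2 fold changes from -0.72 to -0.56 and adjusted p from 0.00739 to 0.0209. The signal was modest, at the 36.4th percentile of all genes. PRKCA was not called against a fold of 1.5 (limma treat adjusted p = 1).

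PRKCB encodes PKCβ, the classical isoform best known from B lymphocytes. Its probe set 7994131 gave 18.2, 17.9 and 20.1 in shPKCi and 18.1, 22.0 and 18.7 in shNT. The groups overlapped, and the signal lay at the 18.1th percentile of all genes, and no detection call was available to separate it from background. The log2 fold change of PRKCB was -0.06 (SE 0.11, 95% confidence interval -0.31 to 0.18, adjusted p = 0.776), and without shNT replicate 2 it was 0.024.

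Among the nPKC isoforms, PRKCQ was called lower. It encodes PKCθ, known for its part in T cell receptor signalling, at chr10:6394097-6580646. Probe set 7931930 had intensities of 114, 115 and 133 in shPKCi and of 163, 141 and 167 in shNT. The highest shPKCi array (replicate 3) was just below the lowest shNT array (replicate 2). The means were 120.3 ± 10.7 in shPKCi and 157 ± 14.1 in shNT (SD, n = 3 each), and PRKCQ was 1.31-fold lower (log2 fold change -0.39, SE 0.11, 95% confidence interval -0.63 to -0.14, limma adjusted p = 0.0382). Leaving out shNT replicate 2 gave -0.46 (adjusted p = 0.0122) and leaving out shPKCi replicate 3 gave -0.46 (0.0415). The call of PRKCQ was lost on leaving out shPKCi replicate 1 (adjusted p = 0.142), shPKCi replicate 2 (0.145), shNT replicate 1 (0.113) or shNT replicate 3 (0.120), or after median centring of the arrays (0.0800).

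PRKCH encodes PKCη, an isoform of stratified epithelia linked to squamous differentiation. Its probe set 7974835 gave 491, 561 and 593 in shPKCi and 644, 672 and 659.5 in shNT. The shNT arrays lay close together and all 3 shPKCi arrays were below them, with shPKCi replicate 1 the lowest. The log2 fold change of PRKCH was -0.27 (SE 0.10, 95% confidence interval -0.50 to -0.04), and PRKCH did not pass the test over all genes (adjusted p = 0.107, unadjusted p = 0.0265). It did pass after cyclic loess between arrays (-0.36, adjusted p = 0.0458) and when only the brighter genes, those over the median signal, were tested (adjusted p = 0.0476). The signal of PRKCH lay at the 90.6th percentile of all genes.

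PRKCD encodes PKCδ, a widely expressed isoform that caspases cleave to an active form in dying cells. Its probe set 8080487 gave 282, 279 and 313 in shPKCi and 322, 338 and 331 in shNT. The groups did not overlap but the highest shPKCi array came near the lowest shNT array. The log2 fold change was -0.18 (SE 0.09, 95% confidence interval -0.39 to 0.03, adjusted p = 0.242), and PRKCD did not pass under any of the 16 alternatives.

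PRKCE encodes PKCε, an nPKC isoform that binds actin and was found to transform rodent fibroblasts when overexpressed. Its probe set 8041763 gave 59.4, 73.1 and 63.8 in shPKCi and 62.7, 44.7 and 64.5 in shNT. The groups overlapped, and shNT replicate 2 was the lowest of the 6 arrays. The log2 fold change was 0.21 (SE 0.15, 95% confidence interval -0.13 to 0.54, adjusted p = 0.428) with all arrays and 0.036 (adjusted p = 0.863) without shNT replicate 2.

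**Figure D2:**
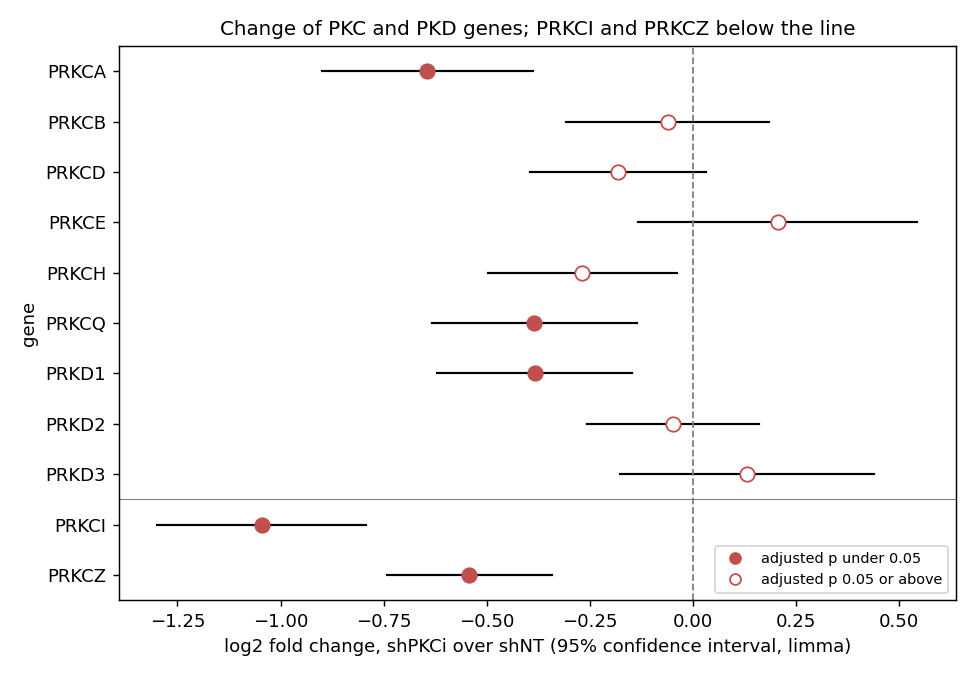
Log2 fold change of the 9 genes, shPKCi over shNT, with 95% confidence intervals from limma, and of the atypical isoform genes PRKCI and PRKCZ below the line. Filled points had an adjusted p under 0.05: PRKCA at -0.64, PRKCQ at -0.39 and PRKD1 at -0.38, beside PRKCI at -1.05 and PRKCZ at -0.54.

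PRKD1 encodes PKD1, the founding member of the PKD group, which acts in vesicle budding from the Golgi and in cell adhesion. Its gene lies at chr14:29576479-29927847. Probe set 7978407 had intensities of 13.1, 13.5 and 11.8 in shPKCi and of 18.4, 16.0 and 15.8 in shNT. The groups did not overlap, with shNT replicate 1 the highest array. The means were 12.8 ± 0.889 in shPKCi and 16.7 ± 1.44 in shNT (SD, n = 3 each), and PRKD1 was 1.30-fold lower (log2 fold change -0.38, SE 0.11, 95% confidence interval -0.62 to -0.15, limma adjusted p = 0.0317). This probe set was dim, at the 13.2th percentile of signal, and no detection call was available to separate it from background. PRKD1 passed without shNT replicate 2 (-0.41, adjusted p = 0.0251). In the 5 other fits that left out 1 array its adjusted p ran from 0.0526 to 0.121, and it was 0.0579 after cyclic loess and 0.0588 after median centring.

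The other PKD genes had brighter probe sets and no call. PRKD2, which encodes the form prominent in lymphocytes and endothelium, gave 94.7, 101 and 91.9 in shPKCi and 97.1, 103 and 96.9 in shNT (probe set 8037794). The arrays of both groups were interleaved, and the log2 fold change of PRKD2 was -0.05 (SE 0.09, 95% confidence interval -0.26 to 0.16, adjusted p = 0.793). After centring on the genes' median it was 0.0075. PRKD3, which lacks some of the amino-terminal features of the other PKDs, gave 89.2, 96.3 and 83.6 in shPKCi and 90.9, 66.1 and 91.0 in shNT (probe set 8051547). As for PRKCE, the low value was in shNT replicate 2. The log2 fold change of PRKD3 was 0.13 (SE 0.14, 95% confidence interval -0.18 to 0.44, adjusted p = 0.599) with all arrays and -0.022 (adjusted p = 0.907) without that array.

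**Figure D3:**
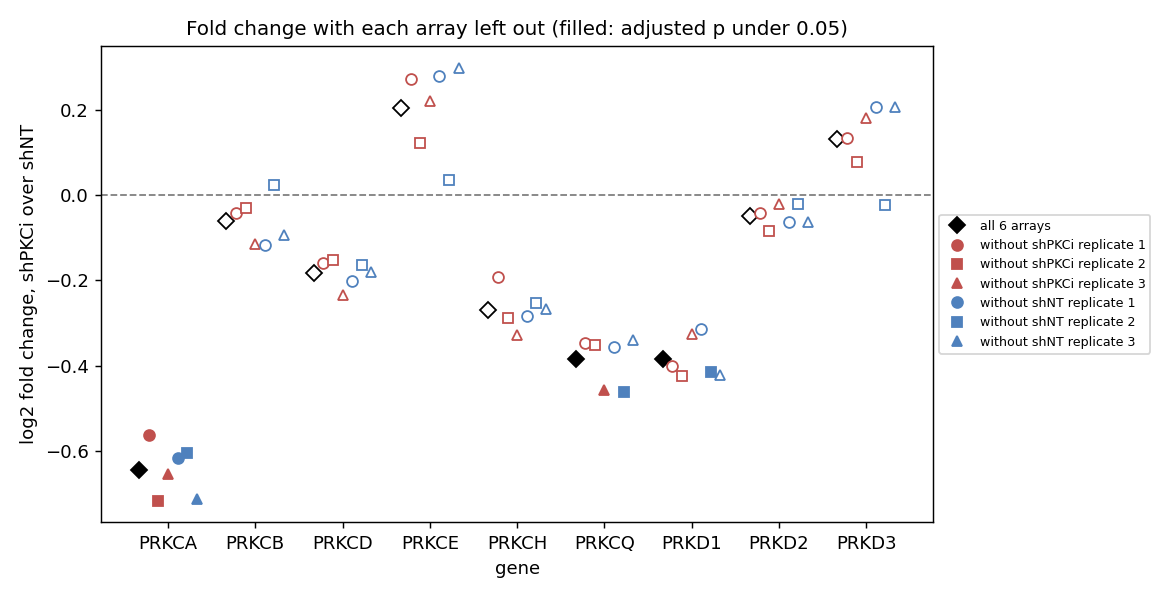
Log2 fold change of the 9 genes, shPKCi over shNT, with all 6 arrays (black diamonds) and with each array left out in turn (red, a shPKCi array; blue, a shNT array). Filled symbols had a limma adjusted p under 0.05. PRKCA is filled in all 6 fits without 1 array, PRKCQ in 2 and PRKD1 in 1, and PRKCE and PRKD3 move towards 0 without shNT replicate 2.

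Whether genes of a subfamily changed by different amounts was tested on the log2 ratio of the pair within each array, over 10 pairs. Here 3 arrays against 3 cannot give a two-sided exact permutation p below 0.1, so that no pair could pass. The log2 ratio of PRKCA to PRKCB averaged 0.89 ± 0.18 in shPKCi and 1.47 ± 0.14 in shNT, a difference of -0.58 (SD, n = 3 each; exact permutation p = 0.1, adjusted p = 0.167). The ratio of PRKCE to PRKCQ averaged -0.88 ± 0.21 in shPKCi and -1.47 ± 0.16 in shNT, a difference of 0.59 that was 0.50 without shNT replicate 2. The ratio of PRKD1 to PRKD3 differed by -0.51, and by -0.39 without that array, and that of PRKD1 to PRKD2 by -0.33. These pairs were at the smallest p the design allows, as were PRKCD to PRKCE (-0.39) and PRKCE to PRKCH (0.47). The last pairs were at -0.20 and 0.29 without shNT replicate 2. The smallest p says only that the ratios did not overlap between the groups. Pairs that share a gene are not independent. Differences within PRKCD, PRKCH and PRKCQ were 0.09 for PRKCD to PRKCH, 0.20 for PRKCD to PRKCQ and 0.12 for PRKCH to PRKCQ, with exact permutation p from 0.2 to 0.4. Single arrays moved them: PRKCD to PRKCH was at 0.032 without shPKCi replicate 1 and at 0.14 without shPKCi replicate 2. PRKCH to PRKCQ was at 0.21 without shNT replicate 2, at 0.064 without shPKCi replicate 2, at 0.071 without shNT replicate 1 and at 0.072 without shNT replicate 3. The ratio of PRKD2 to PRKD3 differed by -0.18 (exact permutation p = 0.5), and by 0.0018 without shNT replicate 2.

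The atypical isoform gene PRKCZ was lower by 0.54 on the log2 scale (adjusted p = 0.00269), with intensities of 101, 103 and 108 in shPKCi and of 153, 148 and 152 in shNT. PKN2 and PKN3, which encode kinases related to PKC in their catalytic part, had log2 fold changes of 0.15 and -0.06 (adjusted p = 0.389 and 0.707). Whether the hairpin acted on transcripts other than PRKCI was not tested.

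Genes whose log2 values over the 6 arrays were most like those of the 3 lower members were picked by Pearson correlation among all other genes, as a description. TMTC4 (r = 0.998) and CHD3 (r = 0.998) were nearest to PRKCA, with log2 fold changes of -0.70 and -0.18. POLR1D (r = 0.995) and UTS2 (r = 0.993) were nearest to PRKCQ, and OGFOD3 (r = 0.995) and BTBD10 (r = 0.991) to PRKD1. The 6 points share the difference between the lines, and the genes were picked from 18404.

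Phospholipase C acts upstream of these kinases. Of its 14 genes measured, 3 were lower, 1 was higher and 10 did not pass in shPKCi against shNT, where 8.95% of all genes were lower and 9.55% higher, with a median log2 fold change of -0.14 against -0.02 over all genes. PLCG2, which encodes the form coupled to tyrosine kinases in immune cells, was lower by 0.59 (adjusted p = 0.00814). Its brightest probe set, used here, was at 168, 159 and 189 in shPKCi and 296, 248 and 233 in shNT. With the mean of its probe sets the log2 fold change of PLCG2 was -0.46 (limma adjusted p = 0.0186). PLCD1, needed for normal hair and epidermis in mice, was lower by 0.47 (adjusted p = 0.0208), and PLCL2, which encodes a phospholipase C-like protein without catalytic activity, by 0.46 (0.0279). PLCD4 was higher by 0.60 (adjusted p = 0.00503), at 38.5, 47.1 and 42.3 in shPKCi and 29.2, 29.5 and 25.5 in shNT. The groups did not overlap for PLCG2 or PLCD4. Without shNT replicate 2 the counts were again 3 and 1. PLCG2 and PLCD4 passed in all 6 fits without 1 array. The count of lower genes was 1 without shPKCi replicate 1, shPKCi replicate 3 or shNT replicate 1. In each of these fits PLCD1 and PLCL2 did not pass. Of the 6 fits without 1 array, PLCD1 passed in 3 and PLCL2 in 1, the one without shNT replicate 2 (adjusted p = 0.00739). PLCL2 also did not pass after cyclic loess (0.0669) or median centring of the arrays (0.0595). Its probe set was dim, at the 18.1th percentile of signal.

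Diacylglycerol kinases convert diacylglycerol to phosphatidic acid and so end its signal. Of 10 measured genes, 1 was lower and 1 higher in shPKCi, beside 8.95% of all genes lower and 9.55% higher. The median log2 fold change of the 10 genes was 0.02. DGKA, the form known from T cells, had intensities of 1046, 1126 and 1128 in shPKCi and of 1380, 1776 and 1522 in shNT, with no overlap (log2 fold change -0.50, adjusted p = 0.0139). The call of DGKA was lost on leaving out shPKCi replicate 1 (adjusted p = 0.0637), when the count of lower genes was 0. DGKE, which prefers diacylglycerol carrying arachidonic acid, gave 107, 121 and 119.6 in shPKCi and 69.2, 85.8 and 80.0 in shNT (log2 fold change 0.57, adjusted p = 0.0064). DGKE passed in each of the 6 fits without 1 array.

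Of 17 measured genes for kinases, phosphatases, chaperones and scaffolds that act on PKC, 3 were higher and 2 lower. Across all genes 9.55% were higher and 8.95% lower. The median log2 fold change of the 17 genes was 0.05. AKAP12, a scaffold that binds PKC and protein kinase A and is also a PKC substrate, was lower by 0.70 (adjusted p = 0.000764), at 756, 758 and 725 in shPKCi and 1181, 1185 and 1275 in shNT. AKAP13, a scaffold that binds protein kinase A, was lower by 0.37 (adjusted p = 0.0287). HSP90AA1, a chaperone that PKC needs to mature, was higher by 0.50 (adjusted p = 0.0372), and PHLPP2, a phosphatase that removes a stabilizing phosphate from PKC, by 0.29 (0.0464). The third higher gene was CAVIN3, which encodes a PKCδ-binding protein of caveolae (0.33, adjusted p = 0.048), named after its value was seen. PDPK1, the kinase that phosphorylates the activation loop of new PKC, differed by 0.02 on the log2 scale (adjusted p = 0.934). RICTOR of mTOR complex 2 differed by 0.07 (adjusted p = 0.811), and both were also named after their values were seen. Without shNT replicate 2, HSP90AA1 was at 0.36 (adjusted p = 0.0564) and did not pass, while 3 genes were higher and 2 lower. HSP90AA1 passed without shPKCi replicate 3 (adjusted p = 0.0385) or shNT replicate 3 (0.0394), and PHLPP2 without shNT replicate 2 (0.0438), each in none of the other fits without 1 array. No gene was higher without shPKCi replicate 1, shPKCi replicate 2 or shNT replicate 1, and 1 was without shPKCi replicate 3 or shNT replicate 3. There was 1 lower gene without any 1 of the shPKCi arrays or without shNT replicate 3, and there were 2 without shNT replicate 1.

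Genes for proteins that PKC or PKD phosphorylate were tested next. Of 23 measured, 6 were lower in shPKCi and 0 higher in limma, beside 8.95% of all genes lower and 9.55% higher. At an unadjusted p under 0.05, 8 were lower and 0 higher, beside 14.7% of all genes lower and 15% higher. The median log2 fold change of the 23 genes was -0.13, against -0.02 over all genes. After median centring of the arrays, or with the replicate number as a block, 4 were lower. ADD3, which encodes an adducin of the cortical cytoskeleton, had intensities of 528, 527 and 516 in shPKCi and of 945, 792 and 945 in shNT, and was 1.70-fold lower (log2 fold change -0.77, SE 0.10, adjusted p = 0.000916). The small heat shock protein gene HSPB1 was lower by 0.52 (adjusted p = 0.0165), the class IIa histone deacetylase gene HDAC5 by 0.40 (0.0215), and AKAP12 as given above. The other 2 were HDAC7 (-0.34, adjusted p = 0.0289) and KIDINS220 (-0.36, adjusted p = 0.0424), both PKD substrates, named after their values were seen. MARCKS, the best known PKC substrate, differed by -0.12 on the log2 scale (adjusted p = 0.552). Without shNT replicate 2, 5 were lower and 1 higher. There were 2 lower without shPKCi replicate 1, 3 without shPKCi replicate 3 or shNT replicate 3, and 4 or 5 in the remaining fits.

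Of 12 measured genes from other families in which proteins with a diacylglycerol-binding zinc finger occur, 1 was lower and 11 did not pass. The list was made by family, and not every protein in it need bind diacylglycerol. Across all genes 8.95% were lower and 9.55% higher. The lower gene was CDC42BPB, a kinase downstream of the small GTPase CDC42 (log2 fold change -0.35, adjusted p = 0.0451). CDC42BPB passed in the fit without shNT replicate 1 (adjusted p = 0.032) and in none of the 5 others that left out 1 array, including the one without shNT replicate 2 (0.0682).

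**Figure D4:**
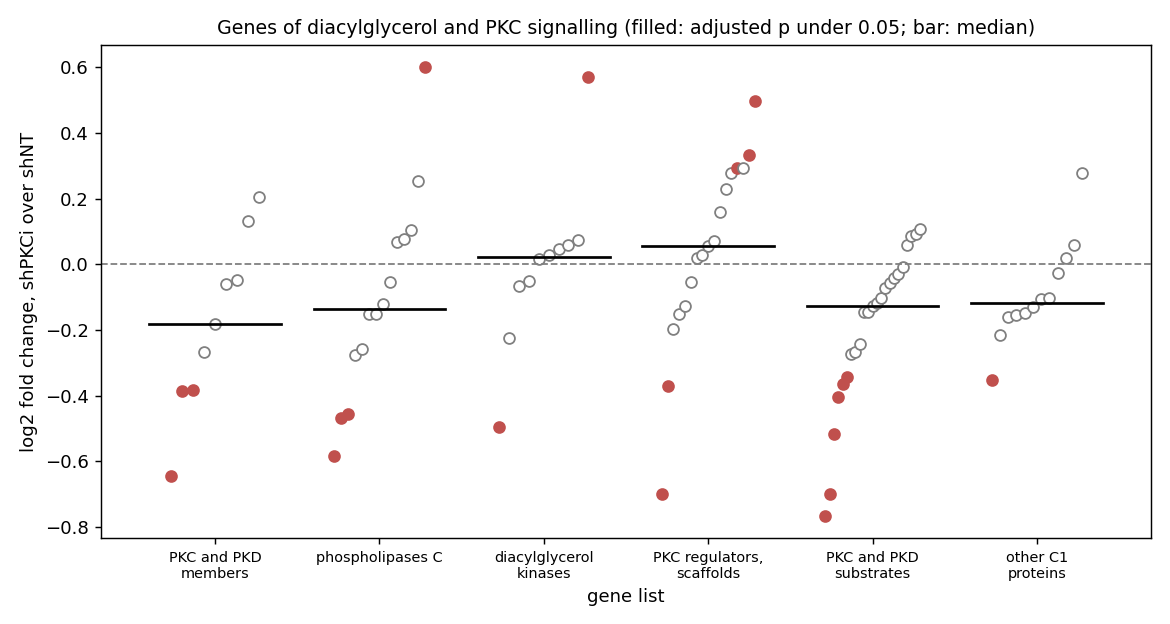
Log2 fold change, shPKCi over shNT, of each measured gene in the 9 PKC and PKD members and in 5 lists of genes around them. Each point is a gene, filled points had a limma adjusted p under 0.05, and bars mark the list medians, from -0.18 in the members to 0.05 in the regulators and scaffolds. AKAP12 is in 2 lists.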

How the data were processed

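Total RNA was biotin-labelled and hybridised to 1 array per sample, per the labels' protocols. The authors deposited an intensity for each of 32321 probe sets, linear and above 0. RMA is named in the submitters' processing notes. Its version, software and build are not given in the sources used here. Since RMA gives log2 values by default, the authors' return to linear values is an inference from their range. Precision is limited by the number of arrays.

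Intensities were turned to log2 with no pseudocount. The platform annotation gave 1 gene symbol for 19158 probe sets, several for 1388, and did not list 11775. For a gene with several probe sets the one with the highest mean was used, which left 18404 genes. No filter on low values was applied, and no detection calls were used. limma 3.58.1 (lmFit, eBayes) in R 4.3.3 compared shPKCi with shNT over all genes, without covariates, with Benjamini-Hochberg adjustment at 0.05; the fit was tested on simulated data. A second fit took every probe set with 1 symbol. Pair ratios used a two-sided exact permutation test.

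The members and gene lists were chosen with earlier results of these data known. The rule for named genes took all 9 members, PRKCI and PRKCZ, up to 4 called genes with the smallest adjusted p per pathway list, and for each called member the 2 other genes with the highest Pearson correlation. Alternative settings were the replicate number as a block, leaving out each array, centring, cyclic loess, signal filters, the mean of probe sets, other variance models and treat. Promoter sequences came from RefSeq (GRCh38.p14), with 9 of 9 members matched. Protein sequences were not used here.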

Additional observations from a re-analysis of the deposited data

How the results depend on the processing

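Of the 3 lower genes, PRKCA passed in 14 of 15 alternatives, PRKCQ in 9 of 16 and PRKD1 in 5 of 14. PRKCA and PRKD1 lack the alternatives whose signal filter removed them. These counts include the mean of probe sets, which could not alter a member's fold change, since each member has 1 probe set. No alternative called a member higher. The number of lower members was 1 after median centring of the arrays, over all probe sets or over the genes (the latter centring was added after the data were seen), and 0 with treat against a fold of 1.5. It ran from 1 to 3 over the fits without 1 array. In the fit over probe sets the number of lower members was 3. There it was 1 under the replicate block, 1 with centring, 1 above the median signal and 0 with treat, and from 1 to 3 without 1 array. The members' intensities and fold changes are the same in the main fits over genes and over probe sets. These fits differ in the rows that share the variance estimate and the adjustment, 18404 genes or 19158 probe sets. Which of these moved the counts was not tested. Over all genes, treat left 88 higher and 180 lower, and the fits without 1 array gave 997 to 1935 higher and 1048 to 1959 lower. Directions turned in genes that were not called: over the fits without 1 array, PRKCB ran from -0.12 to 0.024, PRKD3 from -0.022 to 0.21 and the PRKD2 to PRKD3 ratio from -0.27 to 0.0018, each turning without shNT replicate 2, and PRKD2 was at 0.0075 after centring on the genes. The deviations of same-numbered samples from their group means had correlations of 0.12, -0.06 and -0.18. With 3 arrays per group these values cannot tell whether the numbers pair the samples. With the replicate block 3 members were lower, with adjusted p of 0.00674 for PRKCA, 0.0485 for PRKCQ and 0.05 for PRKD1 (just under the threshold). The dim signal of PRKD1 and PRKCB limits what their values show.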
